A study of Mus musculus with 7 samples.

Results

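This account covers 10 genes for receptors and secreted proteins that splenic macrophages use to recognise microbes, sugars and dying cells: the lectins Cd209a, Cd209b, Mrc1 and Siglec1, the class A scavenger receptors Marco and Msr1, the secreted scavenger receptor cysteine-rich protein Cd5l, the receptor tyrosine kinases Axl and Mertk, and the phosphatidylserine receptor Timd4. They are 10 of the 17920 genes in the table of expression values. They were chosen by symbol, with their values by genotype and time in these libraries already known, so their levels and differences are a description, with no p-value. Counts of calls from the fit over all genes are printed beside the share of all genes called, and nothing is read from them. The working name of lectins and scavenger receptors does not cover Axl, Mertk and Timd4, which take up or sense dying cells, and Cd209a is also known from dendritic cells.

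RNA was measured in spleens of C57BL/6 mice of 8 weeks after an intraperitoneal injection of lipopolysaccharide (LPS), a bacterial cell wall component, at 20 mg/kg. The groups were wild type at 90 min (2 libraries), GdX-deficient at 90 min (2 libraries), wild type at 6 h (2 libraries) and GdX-deficient at 6 h (1 library). GdX, or UBL4A, is a ubiquitin-like protein encoded on the X chromosome by Ubl4a. Its loss is written GdX-/- as a genotype in the labels and GdX-/Y in the treatment protocol. All groups received LPS. Unstimulated spleen was not analysed here, and every comparison is between treated animals. The series text names 4 wild-type and 3 GdX-deficient mice, as many as there are libraries. The source is given as splenocytes, but the protocol describes whole spleens crushed on ice. The loss of GdX is given as the genotype of the animal, with no cell type named. In RNA of a whole organ, fewer cells of a type and less RNA per cell cannot be told apart.

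As background, the spleen filters blood through several macrophage populations. Red pulp macrophages clear old red cells, and marginal zone and metallophilic macrophages sit at the border of the white pulp, where MARCO, the CD209B lectin (SIGN-R1) and Siglec-1 (CD169) serve as their markers. C-type lectins bind sugars on microbes and glycoproteins, and class A scavenger receptors bind polyanions and bacteria. The TAM receptors bind dying cells through bridging proteins, Gas6 for Axl and Gas6 or protein S for Mertk. Such receptors are used both to capture bacteria from blood and to clear dying cells in the spleen.

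Levels are FPKM, fragments scaled by transcript length and by the mapped fragments of the library, so they can be compared between genes. The depth of a library, estimated from the steps between low values, lay between 18300000 and 20200000 mapped fragments. Differences are in log2(FPKM + 1), a scale that shrinks the differences of genes with low levels. Ubl4a itself stood at 5.62 and 7.50 FPKM in wild type and 4.03 and 5.69 in GdX-deficient spleen at 90 min, and at 11.88 and 14.01 against 10.56 at 6 h, so the genotypes overlapped in its own entry at 90 min. Gm44504, an entry that overlaps it, stood at 15.40, 14.52, 51.10 and 24.04 FPKM in the wild-type libraries and at 1.01, 1.86 and 0.66 in the GdX-deficient ones. The labels used here do not give the part of the transcript that the deletion removes, so neither entry serves as a check of the genotype. The labelled tissue carried macrophage RNA: none of the 12 general and 12 red pulp macrophage markers was at 0 in any library. Replicate 2 of GdX-deficient spleen at 90 min stood apart in 10 neutrophil markers, whose summed level was 4757.8 FPKM against 746.7 to 1195 in the other 90 min libraries.

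**Figure D1:**
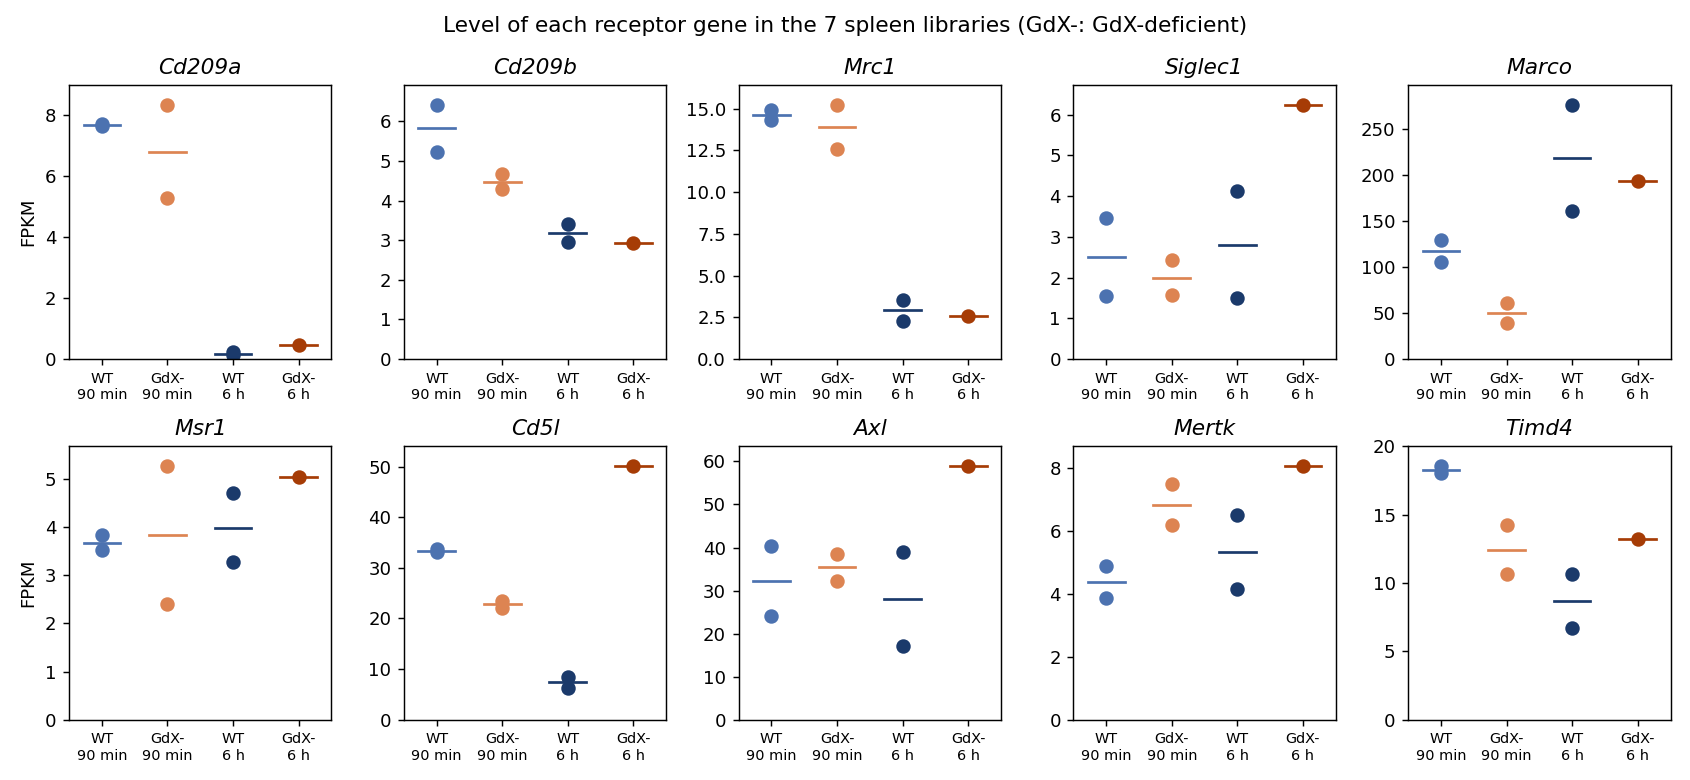
Level of each of the 10 genes in FPKM (vertical axes, each from 0) in the 7 libraries, grouped by genotype and time after LPS (horizontal axis). Points are libraries and lines are group means. Cd209a and Mrc1 are low in all 3 libraries at 6 h, while Cd5l is lowest in wild type and highest in GdX-deficient spleen at 6 h.

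The lectins Cd209a, Cd209b and Mrc1 were lower at 6 h than at 90 min in both genotypes, and Cd209a showed the widest range. Cd209a encodes a mouse relative of human DC-SIGN, a C-type lectin that binds mannose and fucose. Its level was 7.62 and 7.69 FPKM in wild type and 5.26 and 8.31 in GdX-deficient spleen at 90 min. At 6 h it was 0.23 and 0.13 FPKM in wild type and 0.45 in the GdX-deficient library. All 3 libraries at 6 h thus lay far below all 4 at 90 min, and the genotypes overlapped at 90 min. The mean in wild type was 42.5 times lower at 6 h, a log2 difference of -2.88 (SE 0.29, 2 against 2 libraries), and the GdX-deficient difference was -2.40. The 6 h values rest on an estimated 7, 4 and 13 fragments, so the size of the ratio is imprecise, and with a pseudocount of 0.1 the wild-type log2 difference was -4.82. The 3 libraries at 6 h cannot be ranked on so few fragments.

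Mrc1 encodes the macrophage mannose receptor CD206, which binds mannose-ended glycoproteins. It stood at 14.29 and 14.92 FPKM in wild type and 15.20 and 12.59 in GdX-deficient spleen at 90 min, against 2.28 and 3.56 in wild type and 2.55 in the GdX-deficient library at 6 h. The groups did not overlap between the times, and the genotypes overlapped at each time. The mean was 5.00 times lower at 6 h in wild type (log2 difference -2.01, SE 0.30) and 5.45 times lower in GdX-deficient spleen (-2.06). The difference between genotypes was -0.07 (SE 0.30) at 90 min and -0.12 at 6 h, and both turned above 0 (0.12 and 0.07) when values were rescaled without the globin genes. After quantile normalization the 6 h difference was -0.66.

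Cd209b encodes SIGN-R1, the lectin of marginal zone macrophages that captures bacterial polysaccharides. Its levels were 5.24 and 6.41 FPKM in wild type and 4.67 and 4.29 in GdX-deficient spleen at 90 min, then 2.95 and 3.40 in wild type and 2.93 in the GdX-deficient library at 6 h. Every library at 6 h lay below every library at 90 min. The log2 difference between the times was -0.71 (SE 0.28) in wild type and -0.48 in GdX-deficient spleen. Each GdX-deficient value also lay below the wild-type values of its time, by a log2 difference of -0.31 (SE 0.28) at 90 min and of -0.09 at 6 h, the latter turning to 0.12 after rescaling without the globin genes and to -0.64 after quantile normalization.

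The promoters of these genes are shown because Cd209a, Cd209b and Mrc1 were the genes of the set that were lower at 6 h in both genotypes without overlap. Cd209a and Cd209b both lie on chromosome 8. RefSeq promoter windows of GRCm38.p6 run from 250 bases before to 50 bases after the start of a gene. That of Cd209a lies at chr8:3748935-3749234 on the minus strand, that of Cd209b at chr8:3926792-3927091 on the minus strand and that of Mrc1 at chr2:14229164-14229463 on the plus strand. Sequences are written 5′ to 3′ along the gene, the first base of the gene is position 1 and the base before it -1, and capitals mark a match to 1 of 3 motifs on either strand: GAAANNGAA, a core of interferon response elements, GAGGAA, a core of PU.1 sites, or TGCTGA, the core of Maf recognition elements. Overlapping matches were allowed, and the windows shown hold none.
Cd209a: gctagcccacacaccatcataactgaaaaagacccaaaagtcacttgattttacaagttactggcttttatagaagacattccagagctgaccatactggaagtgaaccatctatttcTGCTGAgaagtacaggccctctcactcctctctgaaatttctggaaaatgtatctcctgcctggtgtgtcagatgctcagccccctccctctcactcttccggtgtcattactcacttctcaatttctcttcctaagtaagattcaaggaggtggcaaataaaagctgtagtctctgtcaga
Cd209b: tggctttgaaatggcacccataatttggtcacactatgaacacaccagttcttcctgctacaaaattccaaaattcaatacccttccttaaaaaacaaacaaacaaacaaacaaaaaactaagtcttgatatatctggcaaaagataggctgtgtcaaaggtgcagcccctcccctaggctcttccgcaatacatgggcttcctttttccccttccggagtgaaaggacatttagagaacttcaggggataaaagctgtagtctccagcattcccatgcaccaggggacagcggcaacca
Mrc1: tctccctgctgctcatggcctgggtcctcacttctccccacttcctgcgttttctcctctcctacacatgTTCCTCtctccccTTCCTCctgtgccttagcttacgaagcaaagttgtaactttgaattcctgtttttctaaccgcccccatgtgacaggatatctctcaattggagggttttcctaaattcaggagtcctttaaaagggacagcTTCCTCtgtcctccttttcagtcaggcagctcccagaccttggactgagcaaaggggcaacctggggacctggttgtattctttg
The Cd209a window holds TGCTGA at position -132 from the start, and the Mrc1 window holds GAGGAA on the reverse strand at positions -180, -167 and -35. The Cd209b window holds none of the 3 motifs, which says only that these letters are not in it. Cd209a and Cd209b share a run of 17 bases, ataaaagctgtagtctc, which begins at position 27 in Cd209a and at -2 in Cd209b. The aligned windows were identical at 59.7% of the 300 positions, against 48.3% to 56.0% for the other pairs of the 8 promoters at hand, and the longest run shared by any other pair was 11 bases. Over all 32851 promoters of the table, 8.56% held GAAANNGAA, 28.3% held GAGGAA and 19.5% held TGCTGA. Of the 8 promoters of the set, 1, 4 and 3 held them. Siglec1 and Msr1 were not matched in the promoter table.

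Siglec1 encodes sialoadhesin, the sialic acid receptor of metallophilic macrophages. Its levels were 1.54 and 3.47 FPKM in wild type and 2.42 and 1.58 in GdX-deficient spleen at 90 min, and 1.49 and 4.12 in wild type and 6.23 in the GdX-deficient library at 6 h. The wild-type replicates differed so widely that the times in wild type and, at 90 min, the genotypes overlapped. In GdX-deficient spleen the 6 h library lay above both of 90 min (log2 difference 1.28, and 0.97 after quantile normalization). The 6 h GdX-deficient library was the highest of all 7, at 1.02 log2 units above the wild-type mean of its time. Against replicate 2 of wild type alone this was 0.50, and against replicate 1 alone 1.54. After quantile normalization it was 0.46, less than 2-fold.

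Of the scavenger genes, Marco was lower without GdX at 90 min and higher at 6 h than at 90 min in both genotypes. Marco encodes a class A scavenger receptor of marginal zone macrophages that binds bacteria directly. It was by far the most abundant gene of the set, with a mean level above that of 95.0% of tested genes. At 90 min it stood at 128.72 and 105.41 FPKM in wild type and at 60.27 and 38.90 in GdX-deficient spleen. At 6 h it stood at 275.44 and 160.29 FPKM in wild type and 193.60 in the GdX-deficient library. The genotypes did not overlap at 90 min, where the GdX-deficient mean was 2.36 times lower (log2 difference -1.25, SE 0.33), and they overlapped at 6 h (-0.12, which was 0.20 after quantile normalization and 0.16 after rescaling without the globin genes).

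The 90 min difference of Marco was -0.94 without replicate 2 of GdX-deficient spleen, the library with the high neutrophil markers, and -1.56 without replicate 1. In replicate 1 the neutrophil markers summed to 1044.8 FPKM, within the wild-type range, and Marco stood at 60.27 FPKM against 105.41 and 128.72 in wild type. The 12 macrophage markers summed to 2459.7 and 2466.1 FPKM in wild type and to 2114.8 and 1947.2 in GdX-deficient spleen at 90 min, and the part of these marker sums in the Marco difference was not tested. The ratio of Marco to the macrophage gene C1qa, a complement component, was 0.371 and 0.349 in wild type and 0.241 and 0.216 in GdX-deficient spleen. Between times, Marco was 1.86 times higher at 6 h in wild type (0.85, SE 0.33) and 3.90 times higher in GdX-deficient spleen (1.98). Without replicate 1 of wild type at 6 h the wild-type value was 0.46.

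Msr1, the class A scavenger receptor SR-A1 that binds modified lipoproteins and lipid A, overlapped between the groups in every comparison except genotype at 6 h. It stood at 3.51 and 3.82 FPKM in wild type and 2.40 and 5.26 in GdX-deficient spleen at 90 min, and at 3.26 and 4.69 in wild type and 5.03 in the GdX-deficient library at 6 h. The GdX-deficient libraries of 90 min held both the lowest and the highest of the 7 values. No log2 difference between groups exceeded 0.39, and their standard errors were 0.35 at 90 min and in wild type over time.

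Cd5l separated the genotypes in opposite directions at the 2 times. It encodes CD5L, or AIM, a secreted protein of tissue macrophages that binds lipids and IgM. Its levels at 90 min were 33.73 and 33.09 FPKM in wild type and 23.49 and 22.13 in GdX-deficient spleen. At 6 h they were 8.36 and 6.37 FPKM in wild type and 50.11 in the GdX-deficient library. Replicates lay close together, so no groups overlapped: the 90 min difference was -0.53 (SE 0.26), 1.46 times lower, and the 6 h library was 6.80 times above the wild-type mean (2.62). Over time, Cd5l was 4.54 times lower at 6 h in wild type (-2.05, SE 0.26) and 2.20 times higher in GdX-deficient spleen (1.10). The difference between these differences rests on 1 library and was not tested.

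The promoters of Marco, at chr1:120504975-120505274 on the minus strand, and Cd5l, at chr3:87357631-87357930 on the plus strand, are shown here. In neither gene did the genotypes overlap at 90 min, which also held for Cd209b, Timd4 and Mertk. The Mertk promoter is not shown. Capitals mark the same motifs.
Marco: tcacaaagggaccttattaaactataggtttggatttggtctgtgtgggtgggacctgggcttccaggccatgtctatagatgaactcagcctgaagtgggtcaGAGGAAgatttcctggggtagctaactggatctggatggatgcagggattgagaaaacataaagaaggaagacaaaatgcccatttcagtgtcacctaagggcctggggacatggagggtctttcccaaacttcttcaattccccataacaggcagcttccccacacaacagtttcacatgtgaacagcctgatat
Cd5l: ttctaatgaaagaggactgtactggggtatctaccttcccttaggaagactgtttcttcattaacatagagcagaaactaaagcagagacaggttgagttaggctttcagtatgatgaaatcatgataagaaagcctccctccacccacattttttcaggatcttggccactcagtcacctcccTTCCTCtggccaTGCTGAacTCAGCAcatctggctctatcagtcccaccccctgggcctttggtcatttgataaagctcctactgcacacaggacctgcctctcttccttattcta
Marco holds GAGGAA at position -146. Cd5l holds GAGGAA on the reverse strand at -66, TGCTGA at -54 and its reverse complement at -46, which places the Maf matches 2 bases apart. These matches are descriptions of the sequence, and no binding was measured.

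The receptors for dying cells were less uniform. Axl and Mertk encode TAM receptor tyrosine kinases, which damp cytokine signalling when they bind their bridging proteins on dying cells. Axl was the more abundant, at 4.10 to 8.27 times the FPKM of Mertk in the 7 libraries. Axl stood at 24.14 and 40.37 FPKM in wild type and 38.58 and 32.22 in GdX-deficient spleen at 90 min, and at 17.04 and 38.85 in wild type and 58.93 in the GdX-deficient library at 6 h. Wild-type replicates differed by more than the groups did, except that the GdX-deficient library at 6 h lay above all others. Its log2 difference from wild type was 1.16, and 0.59 when compared with replicate 2 of wild type alone.

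Mertk was the only gene of the set whose GdX-deficient libraries lay above those of wild type at both times without overlap. The share of all genes with this pattern is not given. Taken singly, 24.1% of all genes were higher without overlap at 90 min and 54.9% at 6 h. Its levels were 3.86 and 4.88 FPKM in wild type and 7.48 and 6.18 in GdX-deficient spleen at 90 min, and 4.16 and 6.51 in wild type and 8.06 in the GdX-deficient library at 6 h. All GdX-deficient values lay above those of wild type at the same time, with differences of 0.55 (SE 0.31) at 90 min and 0.54 at 6 h, the latter 0.02 after quantile normalization. The times overlapped in wild type (0.22, SE 0.31).

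Timd4 encodes TIM-4, a receptor of resident macrophages that tethers phosphatidylserine on dying cells. Its levels were 18.03 and 18.55 FPKM in wild type and 14.25 and 10.64 in GdX-deficient spleen at 90 min, and 6.72 and 10.63 in wild type and 13.21 in the GdX-deficient library at 6 h. GdX-deficient spleen was lower at 90 min (-0.53, SE 0.31) and higher at 6 h (0.58), without overlap at either time, as for Cd5l, whose 6 h difference was larger (2.62). The 6 h difference was 0.21 after quantile normalization and 0.29 without replicate 1 of wild type. In wild type Timd4 was 2.11 times lower at 6 h (-1.03, SE 0.31), while in GdX-deficient spleen the times overlapped (0.09, and -0.17 after quantile normalization). Its promoter, at chr11:46810549-46810848 on the plus strand, is shown as the only 1 of the 8 that held GAAANNGAA.
Timd4: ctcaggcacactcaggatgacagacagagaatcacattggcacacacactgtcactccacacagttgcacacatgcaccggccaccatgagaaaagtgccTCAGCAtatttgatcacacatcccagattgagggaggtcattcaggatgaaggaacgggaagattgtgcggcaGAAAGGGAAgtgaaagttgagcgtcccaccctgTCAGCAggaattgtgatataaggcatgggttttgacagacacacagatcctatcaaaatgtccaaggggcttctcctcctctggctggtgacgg
The match to GAAANNGAA begins at position -77, and reverse complements of TGCTGA begin at -150 and -44.

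**Figure D2:**
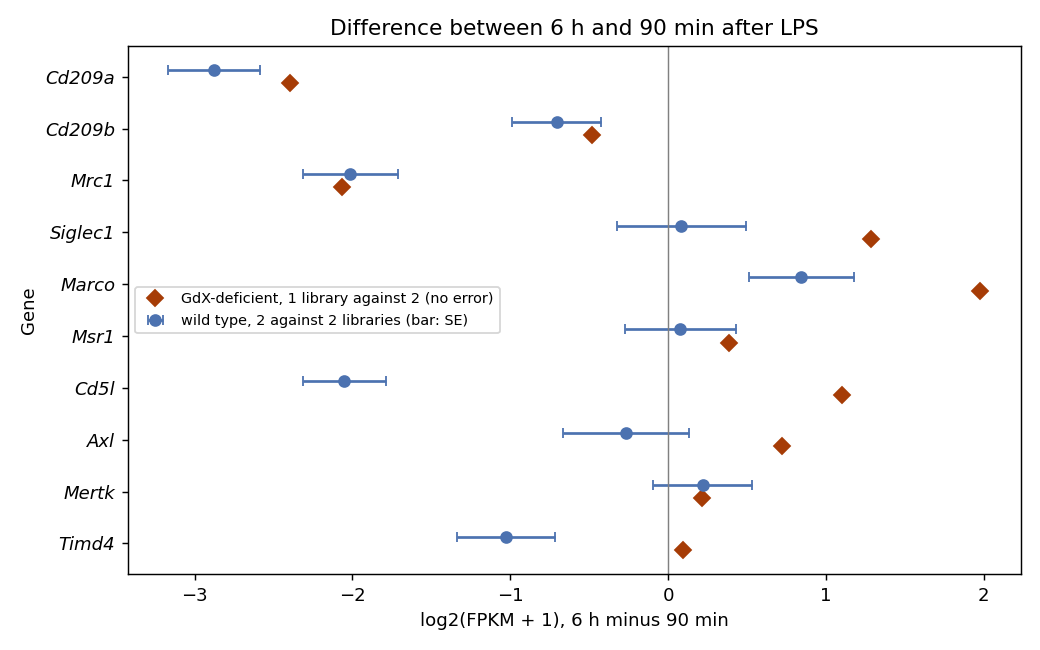
Difference in log2(FPKM + 1) between 6 h and 90 min after LPS (horizontal axis) for the 10 genes (vertical axis). Circles are wild type, 2 against 2 libraries, with bars for the SE, and diamonds are GdX-deficient spleen, 1 library against 2, with no error. Cd209a, Cd209b and Mrc1 lie below 0 in both genotypes, and Cd5l lies at -2.05 in wild type and 1.10 in GdX-deficient spleen.

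Over time in wild type, 5 of the 10 genes were lower at 6 h without overlap of the libraries (Cd209a, Cd209b, Mrc1, Cd5l and Timd4) and 1 was higher (Marco), against 27.6% and 30.3% of all 11378 tested genes. Limma called 3 lower (Cd209a, Mrc1 and Cd5l; 6.32% of all genes were called lower) and none higher (4.39%). Their median log2 difference was -0.49, against 0.05 for all genes tested. Without replicate 2 of wild type at 6 h, 5 of the 10 were called. In GdX-deficient spleen, genes were counted whose 6 h value was at least 2-fold away from the 90 min mean and outside both 90 min values. By this rule 3 were higher (Siglec1, Marco and Cd5l; 4.09% of all genes) and 2 lower (Cd209a and Mrc1; 1.64%). Without regard to size, 5 were above both 90 min libraries (56.8% of all genes) and 3 below (15.8%). Cd209a, Cd209b and Mrc1 were lower without overlap in both genotypes, as 9.60% of all genes were.

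With genotype as a covariate, 4 libraries at 90 min were set against 3 at 6 h, and limma called Cd209a (-2.68, SE 0.24) and Mrc1 (-2.03, SE 0.23) lower and Marco (1.30, SE 0.30) higher, against 2.65% and 2.79% of all genes. Marco was called in 6 of 13 alternative settings and leave-one-out fits. Without the GdX-deficient library at 6 h its difference was 0.85. The set was chosen on these values, so nothing is read from these counts or from those in wild type. The wild-type and the additive comparisons share libraries.

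**Figure D3:**
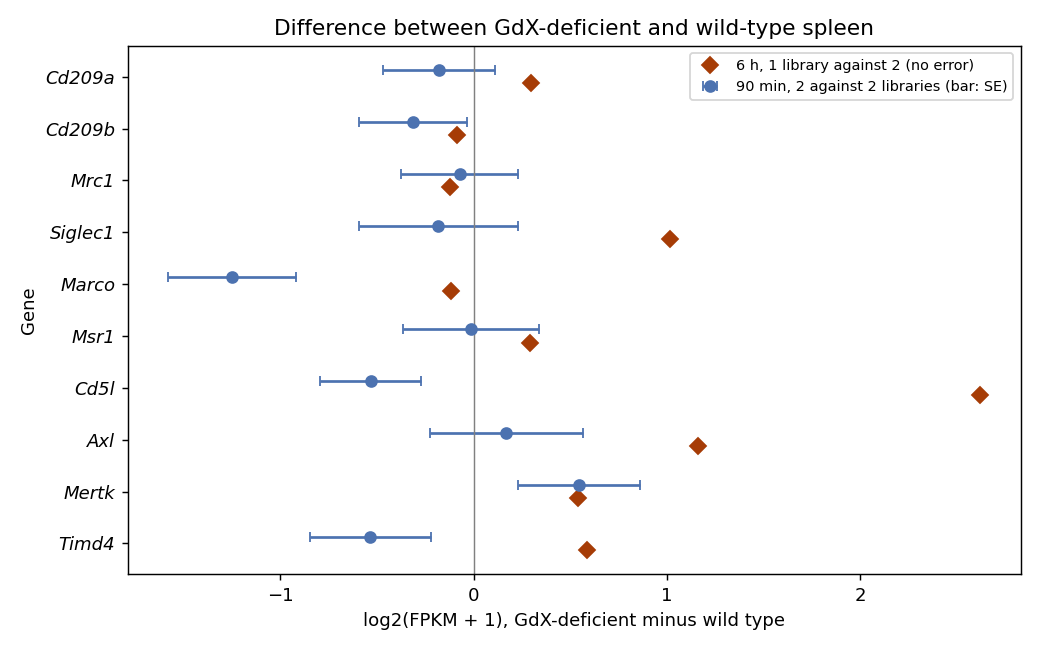
Difference in log2(FPKM + 1) between GdX-deficient and wild-type spleen (horizontal axis) for the 10 genes (vertical axis). Circles are 90 min, 2 against 2 libraries, with bars for the SE, and diamonds are 6 h, 1 library against 2, with no error. Marco is the lowest at 90 min (-1.25) and Cd5l the highest at 6 h (2.62).

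Between genotypes at 90 min, 4 genes were lower without overlap (Cd209b, Marco, Cd5l and Timd4; 23.4% of all genes) and 1 was higher (Mertk; 24.1%). All 10 red cell markers were higher without overlap in the same comparison, with a median log2 difference of 0.90 and sums of 593.22 and 679.42 FPKM in wild type against 1318.1 and 1125.7 in GdX-deficient spleen. Limma called 0 of them, and 9 had an unadjusted p under 0.05. Their part in the differences of the 10 genes was not tested. Limma called none of the 10, and 0.0176% of all genes. At an unadjusted p under 0.05, 1 of the 10 was counted (Marco), beside 862 of 11378 genes. Of the 10 log2 differences 8 were below 0, with a median of -0.18 against 0.07 for all genes. After rescaling without the globin genes 5 were below 0, with a median of -0.02 against 0.25 for all genes. With time as a covariate limma again called none of the 10 (0.0439% of all genes). At an unadjusted p under 0.05, 2 were counted, Marco (-0.80, SE 0.30) and Mertk (0.54, SE 0.24), beside 3071 of 11378 genes. The set was chosen with these values known, so nothing is read from the counts between genotypes.

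At 6 h, where 1 GdX-deficient library was set against 2 of wild type, Siglec1, Cd5l and Axl were at least 2-fold higher and outside both wild-type libraries (3 of 10, against 16.5% of all genes) and none of the 10 was lower by that rule (5.47%). Without replicate 1 of wild type, Cd5l was the only 1 counted, and after quantile normalization Cd5l and Axl were. Above both wild-type libraries stood 7 genes (54.9% of all), and below both stood Cd209b (25.3%). These 7 include Cd209a, which rests on few fragments, and Cd209b lay below by 2.93 against 2.95 FPKM. Cd5l and Timd4 were lower at 90 min and higher at 6 h without overlap, as 6.82% of all genes were. The median of the set was 0.42 against 0.32 for all genes, and after quantile normalization 0.11 against -0.02.

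Since levels are per length, the balance between genes can be read within a library. Marco exceeded Cd5l by 3.82 and 3.19 times in wild type and by 2.57 and 1.76 times in GdX-deficient spleen at 90 min. At 6 h the ratio was 32.9 and 25.2 in wild type and 3.86 in the GdX-deficient library, so that the last stood near the wild-type value of 90 min. Cd209a exceeded Cd209b by 1.13 to 1.94 times in the 4 libraries at 90 min and stood at 0.0382 to 0.154 of it at 6 h. Marco had the highest level of the set in each of the 7 libraries. In wild type at 90 min the order of levels after Marco was Axl and Cd5l, which overlapped, then Timd4, Mrc1, Cd209a, Cd209b, Mertk, Msr1 and Siglec1, of which no neighbours overlapped. In the GdX-deficient library at 6 h the order was Marco, Axl, Cd5l, Timd4, Mertk, Siglec1, Msr1, Cd209b, Mrc1 and Cd209a. In wild type at 6 h Cd209a was the lowest in both libraries, Axl stood next to Marco, and the levels of the other genes overlapped with those of at least 1 neighbour.

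Profiles over the 7 libraries were compared as centred log2(FPKM + 1) values, with the root mean square difference as the measure of likeness. Within the set the closest pairs were Cd209b and Timd4 (0.27), Siglec1 and Axl (0.28) and Axl and Mertk (0.31). Among the other tested genes, Mrc1 lay closest to Serpinb2 (0.14), an inhibitor of plasminogen activators, and to Noct (0.17). Cd209a lay closest to Slc9a9 (0.42) and Serpinb2 (0.43), which are looser matches. Cd5l lay closest to Ltc4s (0.25), the leukotriene C4 synthase, and to Apol7c (0.26). Marco lay closest to Mmp14 (0.23), a membrane matrix protease, and Ecscr (0.27), an endothelial surface protein. Siglec1 lay closest to App (0.09) and Eng (0.12), Axl to Tbc1d8 (0.09) and Lrp1 (0.10), and Timd4 to Ppfibp1 (0.06) and Igfbp5 (0.08). The nearest genes were Dirc2 (0.08) and Ube2e3 (0.10) for Cd209b, Ttc13 (0.08) and Zfp410 (0.09) for Msr1, and Col20a1 (0.10) and Ankfy1 (0.11) for Mertk. The 7 libraries share the same groups and depths, so likeness over them is a description.

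**Figure D4:**
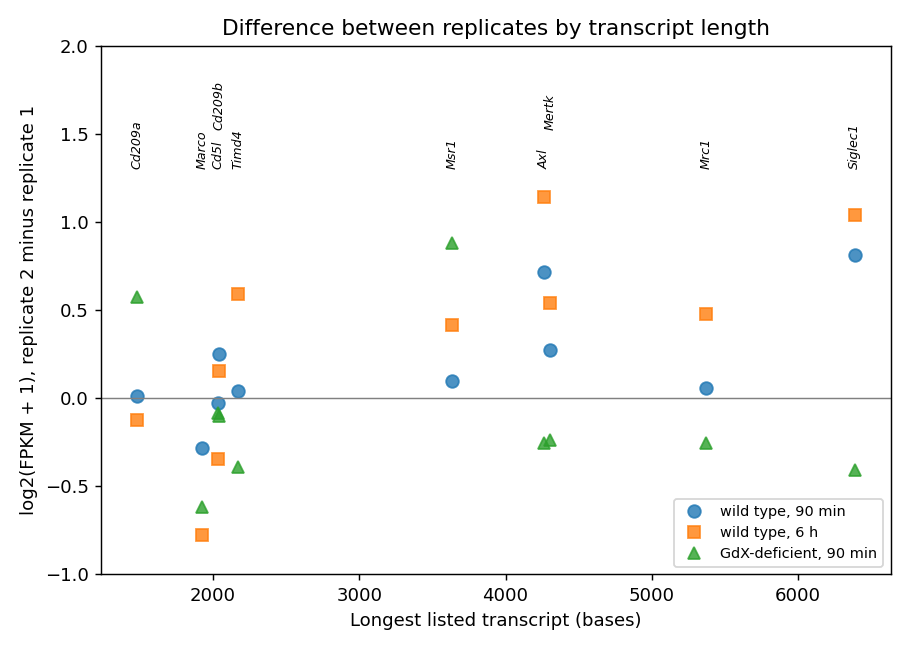
Difference in log2(FPKM + 1) between replicate 2 and replicate 1 (vertical axis) against the longest listed transcript in bases (horizontal axis) for the 10 genes. Circles are wild type at 90 min, squares wild type at 6 h and triangles GdX-deficient spleen at 90 min. Siglec1 and Axl have large positive differences in both wild-type pairs, and Marco has negative ones.

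The spread between wild-type replicates moved with transcript length. Over 11180 genes the difference of replicate 2 from replicate 1 had a Spearman correlation with length of 0.43 at 90 min and 0.58 at 6 h in wild type and of 0.17 in GdX-deficient spleen at 90 min. These correlations are across genes, which are not independent replicates. At 6 h the difference was 1.04 for Siglec1 (6387 bases) and 1.14 for Axl (4265 bases), whereas it was -0.78 for Marco (1925 bases) and -0.34 for Cd5l (2036 bases). Not all of the set followed length, since it was 0.59 for Timd4 (2173 bases), 0.16 for Cd209b (2039 bases) and 0.48 for Mrc1 (5374 bases). The part of this in the group differences was not tested.

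Other genes of these pathways were listed by function, with earlier results of these data known, and tested across all genes. In wild-type spleen the lists of lectins, scavenger receptors, TAM axis genes, transcription factors with CSF1 axis genes, and macrophage markers each had more genes called lower than higher at 6 h. The lists share genes, such as C1qc, Csf1r, Cd163 and Spic, so their counts are not separate. The median log2 differences were -0.69 for lectins, -0.44 for scavenger receptors, -0.55 for the TAM axis and -0.49 for transcription factors with CSF1 axis genes. They were -0.50 for general and -0.92 for red pulp macrophage markers, against 0.05 for all genes tested. In GdX-deficient spleen, with 1 library at 6 h and no test, the medians in the same order were 0.30, 0.48, 0.30, 0.24, 0.36 and -0.27, against 0.25 for all genes. The median of all genes was 0.02 after quantile normalization, a scale on which the list medians are not given. By the 2-fold rule 3 lectins, 1 scavenger receptor, 0 TAM axis genes, 4 transcription factor or CSF1 axis genes, 1 general and 1 red pulp marker were higher there (4.09% of all genes). In the same order 1, 2, 0, 1, 0 and 3 were lower (1.64%). Whether the lists differ between genotypes over time was not tested. Of all genes tested, 6.32% were called lower and 4.39% higher, and the counts of each list are to be read against these shares. Of 22 other lectins, which were C-type lectins and siglecs with the galectins Lgals3 and Lgals9, 6 fell and 0 rose. Cd209d, a further gene of the Cd209 family, fell from 4.38 and 4.13 to 1.14 and 0.79 FPKM (log2 difference -1.42, SE 0.26, limma adjusted p = 0.0116). Clec7a, the beta-glucan receptor dectin-1, fell from 11.31 and 11.37 to 2.73 and 4.12 FPKM (-1.50, SE 0.30, limma adjusted p = 0.0160). Siglecg, an inhibitory lectin of B cells, fell from 35.99 and 47.30 to 6.66 and 10.87 FPKM (-2.15, SE 0.39, limma adjusted p = 0.0116). The 10 B cell markers summed to 1741.4 and 1659.2 FPKM at 90 min and to 559.89 and 632.19 at 6 h in wild type, and their part in the Siglecg difference was not tested. The fit that lacked wild-type replicate 1 of 90 min called 2 of the lectins, the fit that lacked replicate 2 called 3, and so did testing all 17920 genes.

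Of 16 other scavenger receptors, 5 fell and 0 rose in wild type, where 6.32% of all genes fell and 4.39% rose. Cd163, the haemoglobin scavenger receptor, fell from 2.32 and 3.16 to 0.22 and 0.26 FPKM (log2 difference -1.58, SE 0.24, limma adjusted p = 0.00646). It stood at 2.35 and 2.49 FPKM at 90 min and 0.26 at 6 h in GdX-deficient spleen, so that, like Cd209a and Mrc1, it was low in all 3 libraries at 6 h. Stab2, a hyaluronan receptor of sinus endothelium, fell from 4.57 and 6.66 to 0.78 and 1.48 FPKM (-1.64, limma adjusted p = 0.0130), and Cd36, a receptor for oxidised lipids, from 30.60 and 33.59 to 8.51 and 15.27 FPKM (-1.41, limma adjusted p = 0.0214). With all 17920 genes tested, 1 of the list was called. Leaving out wild-type replicate 1 or 2 of 90 min left 2 and 1, and leaving out replicate 1 of 6 h left 3.

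Of 19 genes of the TAM axis and the uptake of dying cells, 4 fell and 0 rose in wild type, against the same 6.32% and 4.39% of all genes. Gas6, the ligand of Axl and Mertk, fell from 12.14 and 12.46 to 1.90 and 1.92 FPKM (log2 difference -2.19, SE 0.28, limma adjusted p = 0.00340), while the levels of its receptors overlapped between the times. In GdX-deficient spleen Gas6 stood at 5.61 and 4.32 FPKM at 90 min and 5.33 at 6 h. Its genotype difference at 90 min was -1.17 and did not pass the threshold. Anxa1 (-1.89, limma adjusted p = 0.00530), which binds phosphatidylserine, and Itgb5 (-1.82, limma adjusted p = 0.00651), an integrin subunit for uptake, also fell in wild type. Pros1, which encodes protein S, stood at 6.77 and 6.91 FPKM at 90 min and 4.26 and 5.83 at 6 h in wild type, and Tyro3, the remaining TAM receptor, at no more than 0.71 FPKM in any library.

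Of 17 transcription factors and CSF1 axis genes of splenic macrophages, 4 fell and 0 rose in wild type (6.32% and 4.39% of all genes). Csf1r, the receptor for the macrophage growth factor CSF1, fell from 41.05 and 71.99 to 11.79 and 26.44 FPKM (log2 difference -1.56, SE 0.40, limma adjusted p = 0.0371). Pparg (-1.29, limma adjusted p = 0.0149) and Tfec (-1.34, limma adjusted p = 0.0217) fell as well. Leaving out wild-type replicate 2 of 90 min gave 0 calls, leaving out replicate 1 of 90 min or of 6 h gave 2, and leaving out replicate 2 of 6 h gave 7. Testing all 17920 genes gave 1. Of 12 red pulp macrophage markers, 6 fell and 0 rose, and this count moved both ways when single libraries were left out. Vcam1 (-2.59, limma adjusted p = 0.00129), Slc40a1, the iron exporter ferroportin (-2.61, limma adjusted p = 0.00330), and Trf, transferrin (-2.23, limma adjusted p = 0.00365), had the smallest p. Of 12 general macrophage markers, 4 fell and 0 rose, among them Lyz2 (-1.30, limma adjusted p = 0.0214), which encodes lysozyme, and C1qc (-0.97, limma adjusted p = 0.0400). That count was 1 without either wild-type library of 90 min, 2 without either GdX-deficient library of 90 min and 0 when all 17920 genes were tested.

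Interferon-stimulated genes, kept as a reference for the LPS response, moved both ways in wild type. Of 18, 3 rose, namely Zbp1 (1.22), Oasl2 (1.24) and Oas1a (1.15), and 2 fell, namely Ifit1 (-1.79) and Ifit3 (from 576.38 and 593.69 to 281.11 and 302.93 FPKM), with limma adjusted p between 0.00480 and 0.0423. Siglec1, itself known as interferon-inducible, overlapped between the times in wild type, as given above.

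Between genotypes no gene of these lists passed the limma threshold, either at 90 min or with time as a covariate. Of the 88 genes in the lectin, scavenger, TAM, transcription factor, macrophage and red pulp lists, 5 had an unadjusted p under 0.05 at 90 min. Of these 1 was higher (Cd209c) and 4 lower (Cxcl16, Gas6, Il34 and Mfge8). Among all 11378 genes 862 had it, 360 higher and 502 lower. With time as a covariate 16 had it, 15 higher and 1 lower, beside 3071 of all genes, 2025 higher and 1046 lower. Mfge8, a bridging protein for phosphatidylserine, stood at 232.53 and 264.87 FPKM in wild type and 163.15 and 78.87 in GdX-deficient spleen at 90 min. Cd209c stood at 3.41 and 5.33 against 6.76 and 9.49 FPKM, opposite in direction to Cd209b. These 5 genes were picked after their values were seen. With time as a covariate, the fit that lacked GdX-deficient replicate 1 of 90 min called 8 lectins, 3 TAM axis genes and 1 red pulp marker among 1674 of all genes, and the fit that lacked wild-type replicate 2 of 90 min called 1 lectin among 242. At 90 min, 1 TAM axis gene was called when either wild-type library of 6 h was left out, among 173 calls without replicate 1 and 183 without replicate 2.

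At 6 h 66.2% of all genes tested had a difference above 0 in the GdX-deficient library. So did 19 of 22 lectins, 15 of 16 scavenger receptors, 16 of 19 TAM axis genes and 13 of 17 transcription factor and CSF1 axis genes. By the 2-fold rule 10 of the 22 lectins were higher and 1 lower (Mgl2, -1.25), against 16.5% and 5.47% of all genes. Higher by that rule were also 5 of the 16 scavenger receptors, 6 of the 19 TAM axis genes and 7 of the 17 transcription factor and CSF1 axis genes. No gene of these other lists was lower. The medians of these lists were 0.92, 0.51, 0.63 and 0.97 in that order, against 0.32 for all genes. After quantile normalization the median of all genes was -0.02, and the list medians are not given on that scale. Nr1h3, which encodes the oxysterol receptor LXR alpha, stood at 116.00 FPKM against 43.64 and 35.39 in wild type, and Siglecg at 82.93 against 6.66 and 10.87. Among the lectins Cd209d (0.94 FPKM, against 1.14 and 0.79) lay within the wild-type range, as Mrc1 did.

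**Figure D5:**
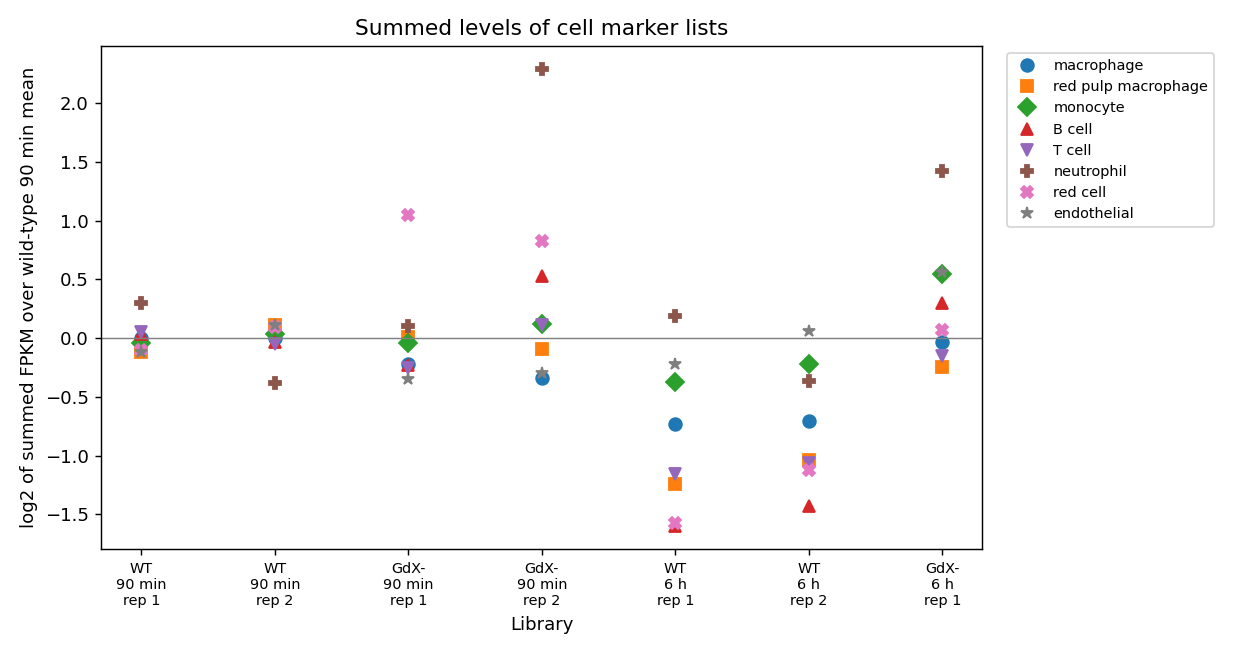
Summed FPKM of 8 marker lists in each library (horizontal axis), as log2 of the ratio to the wild-type mean at 90 min (vertical axis). Symbols stand for the lists. In wild type at 6 h the B cell, T cell, red cell and red pulp macrophage sums lie lowest, and the GdX-deficient library at 6 h lies near the 90 min level for these and higher for neutrophils.

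Marker sums of several cell types moved with these differences. The 12 general macrophage markers summed to 1484.1 and 1507.4 FPKM in wild type and 2402.9 in the GdX-deficient one at 6 h, and the 12 red pulp markers to 342.23 and 395.1 against 682.17. Both lists were thus lower in wild type at 6 h than in all other libraries, as Cd5l was. In the 6 h GdX-deficient library the B cell sum was 2092.9 FPKM and the neutrophil sum 2606, against 1108.9 and 754.8 for neutrophils in wild type. Of the 11 dendritic cell markers tested, 7 were lower at 6 h in wild type without overlap (27.6% of all genes) and 1 was higher (30.3%), with a median log2 difference of -0.72. Itgax, which encodes the dendritic cell integrin CD11c, stood at 9.30 and 11.52 FPKM at 90 min and at 2.41 and 3.66 at 6 h in wild type. The part of these markers in the lower Cd209a at 6 h was not tested. The summed level of the 12 markers was 129.27 to 151.48 FPKM at 90 min and 135.34, 108.99 and 151.6 at 6 h, with none at 0, of which Batf3 alone held 79.54 and 36.09 in wild type at 6 h. The 10 endothelial markers summed to 69.07 and 81.15 FPKM in wild type and to 59.02 and 61.19 in GdX-deficient spleen at 90 min. At 6 h they summed to 64.56 and 78.3 in wild type and to 110.91 in the GdX-deficient library. The 10 monocyte markers summed to 753.05 to 841.65 FPKM at 90 min, 597.58 and 664.02 in wild type and 1133.2 in the GdX-deficient library at 6 h. The part of cell numbers in the values of the 10 genes was not tested.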

How the data were processed

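RNA of 7 spleens was sequenced on a BGISEQ-500 instrument after oligo-dT selection or rRNA depletion, per the labels' protocols, which do not say which of these was used. The authors deposited FPKM values with 2 decimals and a column for each library, per the file headers. The submitters' processing notes name HISAT, HISAT2 2.0.4, Bowtie2, RSEM and the build GRCm38.p5, without their roles. How fragments shared by close relatives, such as Cd209 genes, were divided is not given in the sources used here.

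The 10 genes and all gene lists were chosen with earlier results of these data known. Groups were taken from the titles. From these, log2(FPKM + 1) was computed, and limma 3.58.1 (R 4.3.3) tested the 11378 of 17920 genes whose mean FPKM was 1 or more (empirical Bayes with a trend, two-sided), with Benjamini-Hochberg adjustment over all genes at 0.05. All 10 genes passed the filter. Genotype at 90 min and time in wild type came from a fit of 4 groups. Additive models gave each factor with the other as covariate. With 1 GdX-deficient library at 6 h, the other comparisons used a 2-fold rule without a test. The code was tested on simulated data. P-values measure the spread between these libraries. Depth was estimated from the steps of 99 to 138 low values per library, of which 59.7% to 75.9% lay within 0.12 of a whole fragment.

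Named genes were the 10 genes, Ubl4a and its overlapping entry, up to 3 higher and 3 lower genes per list with the smallest p past the threshold, and the 2 most alike genes of each of the 10. Cd209c, Cxcl16, Il34, Mfge8, Pros1, Tyro3, Nr1h3, Mgl2, Itgax and Batf3, and the genes in ratios, were named after their values were seen. Not every gene that this rule names is reported here. Promoters are from RefSeq (GRCm38.p6), with 8 of 10 genes matched by symbol. Alternatives were a pseudocount of 0.1, no filter or a mean FPKM of at least 5, quantile normalization, rescaling without 10 globin genes, the replicate number as a block, only the libraries compared, and leaving out each library.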

Additional observations from a re-analysis of the deposited data

Results flagged for a closer look

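Cd5l moved in opposite directions between genotypes at the 2 times. Both GdX-deficient libraries lay below both of wild type at 90 min (log2 difference -0.53), and the GdX-deficient library lay above both at 6 h (2.62). Seen over time, all 6 h wild-type libraries lay below those of 90 min (-2.05), and the GdX-deficient library at 6 h lay above both of its 90 min libraries (1.10). These are the same 7 values read in 2 ways. Timd4 was likewise lower without GdX at 90 min (-0.53) and higher at 6 h (0.58). Whether the differences differ between times or genotypes was not tested, since the 6 h GdX-deficient group has 1 library. The direction of each value was the same in all alternatives run for it. Marker sums of macrophages were also higher in that library than in wild type at 6 h (2402.9 against 1484.1 and 1507.4 FPKM), and their part was not tested.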

How the results depend on the processing

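Of 666 alternative values of the log2 differences of the 10 genes, 591 stayed within the spread of the main value, 75 moved beyond it and 46 changed sign. No sign change affected a value that had passed its threshold or fold rule, and the largest of the values that changed sign was 0.73 in size. The number of the 10 genes called between genotypes at 90 min was 0, and 1 (Marco) when only the compared libraries were fitted, a setting that called 181 genes in all against 2. Leaving out each library gave 0 to 1, and the fits that lacked wild-type replicate 1 or 2 of 6 h gave 1 (Marco), among 173 and 183 genes in all. Between genotypes at 6 h, 3 were counted and leaving out a library gave 1 to 3, with 1 when wild-type replicate 1 was left out. Over time in wild type, 3 were called, and leaving out a library gave 3 to 5, with 5 when wild-type replicate 2 of 6 h was left out. Over time in GdX-deficient spleen 5 were counted, and 3 with a mean FPKM of at least 5, a filter that keeps 6 of the 10 genes. The cause of the other shifts was not tested.

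The replicate number as a block gave 5 genes over time in wild type, adding Marco and Timd4, and changed no other count of the 10 genes. Over all genes it gave 2345 calls in that comparison against 1218, with 10 lectins against 6 and 8 TAM axis genes against 4. The deviations of same-numbered libraries went together between the times in wild type, with a correlation of 0.77. The correlation was -0.12 between the genotypes at 90 min, and 0.08 between GdX-deficient spleen at 90 min and wild type at 6 h. Whether the numbers pair the samples was not tested. With crossed numbers, an alternative chosen after seeing the data, 0 of the 10 genes and 2 genes in all were called between genotypes at 90 min.

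Testing all genes whatever their level gave 635 calls over time in wild type, and rescaling without globin genes gave 708. Depth limits Cd209a at 6 h, whose libraries hold an estimated 4 to 13 fragments of it. FPKM gives no counts, so no counting interval is given.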
